A study of Mus musculus with 5 samples.

Results

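Skeletal muscle receives acetylcholine through a nicotinic receptor that clusters beneath the motor nerve terminal, and the 10 genes described here encode the subunits of that receptor and the proteins that gather it at the synapse. They were taken by symbol from the table of normalized read counts, and each of the 10 had a row among the 54232 genes listed. All 10 passed the minimum of 5 normalized counts in at least 1 sample that left 18156 genes for testing, and their levels were far above that minimum in every sample. The cells were primary mouse myoblasts, muscle precursor cells selected with magnetic beads from digested leg muscle and kept for 72 h in low-serum medium, in which they differentiate and fuse into myotubes. Bulk RNA was compared between 3 WT cultures and 2 Elmo2EID/EID cultures, the latter from mice that are homozygous for a knock-in that replaces an isoleucine with an aspartate in the inhibitory domain (EID) of ELMO2. ELMO2 works with DOCK proteins to activate RAC GTPases during myoblast fusion, and the substitution favours its open form. The knock-in is carried by the whole organism and not by muscle alone, the animals of both groups were on a mixed C57BL6 and 129SV background, and primary myoblasts came from mice between 6 and 8 weeks of age. Cultures of primary cells were typically started from separate mice, but the labels do not tie these 5 samples to individual animals, so the p-values measure the spread between these samples, which may be partly technical. The comparison asked whether the genotype with more fusion also carried a different amount of receptor and synaptic transcripts.

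The receptor is a pentamer with a pair of alpha subunits (Chrna1), a beta subunit (Chrnb1), a delta subunit (Chrnd) and a remaining position held by the gamma subunit (Chrng) in fetal and denervated muscle and by the epsilon subunit (Chrne) at the adult synapse. Agrin (Agrn) is a matrix proteoglycan that binds LRP4 (Lrp4), which in turn activates the muscle-specific kinase MuSK (Musk). DOK7 (Dok7) is the cytoplasmic adaptor that MuSK needs for full activity, and rapsyn (Rapsn) is the scaffold that holds the receptors together. In uninnervated myotubes the receptor genes are switched on by the myogenic transcription factors, which bind E-boxes with the letters CANNTG. The N-box, with the letters CCGGAA, is a site for ETS family factors that is known for directing Chrne to the nuclei beneath the synapse.

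The promoters of Chrna1, Chrng and Chrne are shown because they belong to the most abundant subunit and to the exchanged pair. They are RefSeq sequences on GRCm38.p6, each from 250 bases before to 50 bases after a transcript start and written in the direction of transcription. Capitals mark every CANNTG and CCGGAA found on either strand.

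Chrna1 (chr2:73580289-73580588, minus strand): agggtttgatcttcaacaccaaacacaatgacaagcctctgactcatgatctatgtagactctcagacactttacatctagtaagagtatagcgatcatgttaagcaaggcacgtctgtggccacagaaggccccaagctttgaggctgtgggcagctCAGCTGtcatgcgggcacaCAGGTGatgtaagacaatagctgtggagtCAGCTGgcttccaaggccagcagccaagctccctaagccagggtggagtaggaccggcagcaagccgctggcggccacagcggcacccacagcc

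Chrng (chr1:87205561-87205860, plus strand): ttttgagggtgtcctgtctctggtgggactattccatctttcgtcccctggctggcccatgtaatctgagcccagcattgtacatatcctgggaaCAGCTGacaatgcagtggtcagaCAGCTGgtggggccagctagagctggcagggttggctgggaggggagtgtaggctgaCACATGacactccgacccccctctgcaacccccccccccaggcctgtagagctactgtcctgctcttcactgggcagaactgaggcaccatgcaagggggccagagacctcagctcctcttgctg

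Chrne (chr11:70619145-70619444, minus strand): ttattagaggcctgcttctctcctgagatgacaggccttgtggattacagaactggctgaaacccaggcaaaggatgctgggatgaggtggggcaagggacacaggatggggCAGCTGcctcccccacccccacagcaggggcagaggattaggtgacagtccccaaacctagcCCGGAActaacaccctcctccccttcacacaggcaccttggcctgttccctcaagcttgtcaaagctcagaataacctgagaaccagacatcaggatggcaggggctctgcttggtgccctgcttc

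The Chrna1 window held 3 E-boxes, whose first bases lay at -92, -73 and -44 from the start, and the Chrng window held 3 at -155, -132 and -75. The Chrne window held 1 E-box at -138 and 1 N-box at -76. Of all 32851 RefSeq promoter windows of this length, 17.6% held at least 3 CANNTG and 72.3% at least 1, so an E-box as such is common. The form CAGCTG, a subset of CANNTG, occurred at least 2 times in 1.90% of all windows, and Chrna1 and Chrng each held 2. CCGGAA was present in 14.9% of all windows. The table held promoters of 7 of the 10 genes and none of Chrnd, Lrp4 or Rapsn. The Chrnb1 and Musk windows each held 3 E-boxes, of which 0 and 1 were CAGCTG. Dok7 and Agrn had a pair of windows each, with 1 and 0 E-boxes for Dok7 and 0 and 1 for Agrn. These matches are letters in a window, and binding was not measured.

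The 5 libraries held between 35021856 and 49381544 recovered reads, and 3 reads were worth between 2.65 and 3.73 normalized counts. The targeted gene, Elmo2, had 1642, 1539 and 1660 normalized counts in WT against 1441 and 1327 in Elmo2EID/EID. Since the knock-in alters a codon, this level does not check the labels. All 20 differentiated muscle genes of a marker list were measured, led per length by Acta1, the skeletal actin (458389 to 518055 normalized counts), so the cultures expressed the programme of the labelled cell type. Within that list Myh2, a fast myosin, was higher in Elmo2EID/EID (log2 fold change 1.63, adjusted p = 0.0431) and Myh4, another fast myosin, was lower (-0.58, adjusted p = 0.0386), by limma. Of 11 motor neuron and neuronal markers only 5 reached the minimum for testing, and Chat, Slc18a3 and Snap25, which mark cholinergic neurons or their terminals, were at 0 in all 5 samples. Others of the list were detected: Tubb3, the most abundant, had 287.1 to 434.7 normalized counts, Slc5a7, the choline transporter of cholinergic terminals, 20.2 to 218.2, and Isl1, a motor neuron factor, 13.7 to 48.4. Stmn2, a neuronal tubulin-binding protein, was higher in Elmo2EID/EID by edgeR (adjusted p = 0.0446) and DESeq2 (0.00561) but not by limma (0.0609), with 13.3, 11.2 and 22.4 normalized counts in WT against 62.6 and 49.3. Of the satellite cell and myoblast list, Pax7, the stem cell factor, had 922.4, 942.2 and 836.6 normalized counts in WT and 414.1 and 297.6 in Elmo2EID/EID (-1.35 on the log2 scale, adjusted p = 0.00764 by limma), and the other 6 genes, Des the most abundant, did not pass by limma. DESeq2 also called Vcam1, an adhesion molecule, as lower (-0.49 by limma). Of these 7 genes, 1 was above 0 in log2 fold change (median -0.25), 5 had an unadjusted p under 0.05 (against 15.2% of all genes) and 6 did not overlap between the genotypes (against 32.6%). The 10 cycling cell markers, led by Top2a, gave 0 calls by limma, edgeR or DESeq2, with 0 of 10 above 0 in log2 fold change and a median of -0.40. At an unadjusted p under 0.05 the count was 5 of 10, and the groups did not overlap in 6 of 10.

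Chrna1 stood far above every other member. Per kilobase of exon (the union of all annotated exons, which allows levels of different genes to be compared) it averaged 28814 ± 1165 normalized counts (SD over 5 samples) and ranked 41 of 14339 protein-coding genes tested. Chrnd followed at 7507 ± 97.9 and Chrng at 7145 ± 483, with ranges over the 5 samples that overlapped. Chrnb1 averaged 4550 ± 492 per kilobase, below every sample's Chrng. Chrne, the adult subunit, averaged 378.5 ± 89.5 and ranked 4331. Of the exchanged pair, Chrng was thus close to Chrnd, and Chrne was the lowest of the 5 subunit genes.

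Among the organisers Musk had the highest level, 2987 ± 506 normalized counts per kilobase of exon. Rapsn came next at 1503 ± 113, then Dok7 at 1153 ± 92.9 and Lrp4 at 554.4 ± 28.9. Agrn was the lowest of the 10 at 179.0 ± 33.3 and ranked 6672 of the protein-coding genes. Apart from Chrnd and Chrng, no neighbours in this order overlapped in their range over the 5 samples. The order between some neighbours depended on the length used. With the length of the longest coding transcript in place of the union of exons, the ratio of Chrng to Chrnd rose from a mean of 0.951 to 1.27, Dok7 stood above Rapsn, and Chrne and Agrn overlapped.

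**Figure D1:**
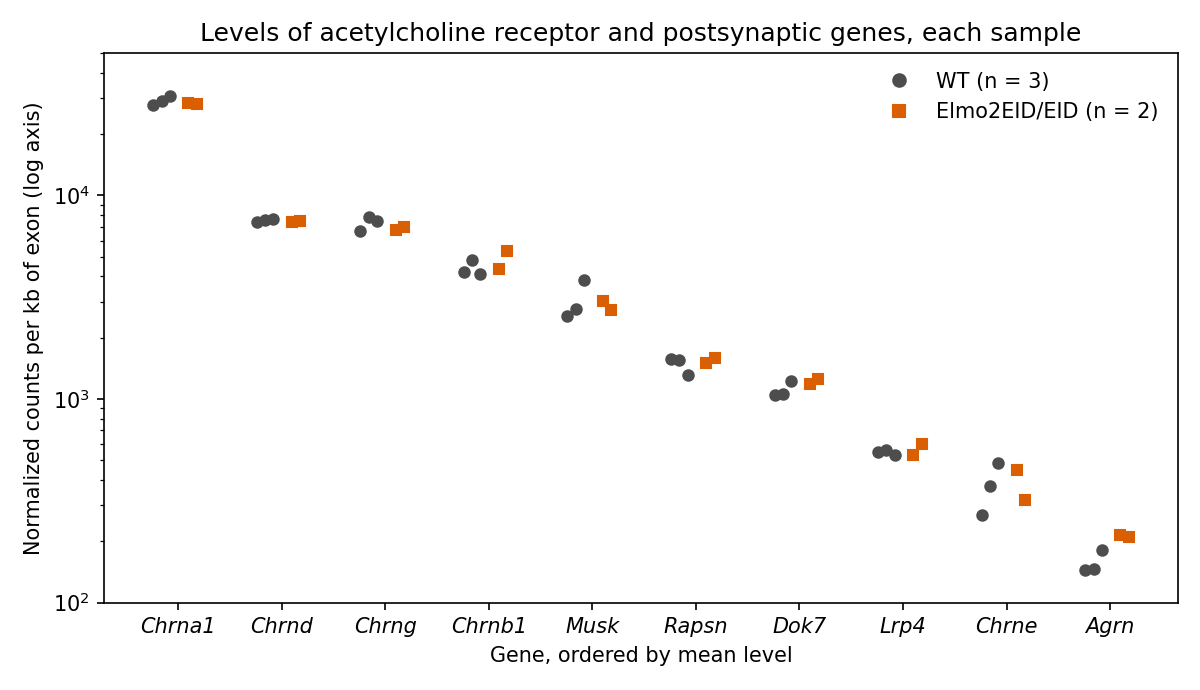
Normalized counts per kilobase of exon (log axis) of the 10 genes in each sample, ordered by mean level, with WT samples as circles and Elmo2EID/EID samples as squares. Chrna1 lies at 28814 on average and Agrn at 179.0, and the 2 genotypes are side by side in every gene, with the squares above all circles only in Agrn.

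Taken as shares of the summed per-kilobase level of the 5 subunit genes, Chrna1 made up 58.3% to 60.8% of receptor transcripts across the samples. Chrnd took 15.2% to 16.1%, Chrng 14.3% to 15.7%, Chrnb1 8.18% to 11.0% and Chrne 0.580% to 0.964%. The shares depended on the length used. With coding length Chrna1 took 67.3% to 69.2%, Chrng 13.7% to 15.1%, Chrnd 11.4% to 12.1% and Chrne 0.236% to 0.391%, and with the longest coding transcript Chrna1 took 52.5% to 54.9% and Chrng 19.3% to 21.1%. Per kilobase of exon, the shares of the genotypes overlapped for every subunit, with Chrna1 at 59.8% ± 1.11 in WT (SD, n = 3) and 59.2% ± 1.21 in Elmo2EID/EID (SD, n = 2). On the same scale, Chrna1 was 4.26 to 4.78 times the mean of Chrnb1, Chrnd and Chrng in the same sample.

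Chrna1 (ENSMUSG00000027107, chromosome 2, 73563215 to 73580338, minus strand, GRCm38) had 121582, 127609 and 134555 normalized counts in WT replicates 1 to 3 and 125166 and 122981 in Elmo2EID/EID replicates 1 and 2. Both Elmo2EID/EID values lay inside the WT range. The log2 fold change of Elmo2EID/EID over WT was -0.04, with a standard error of 0.08 and a 95% interval of -0.24 to 0.16 (adjusted p = 0.861). This and the following fold changes were taken on log2(normalized count + 1) and tested with limma over all 18156 genes with Benjamini-Hochberg adjustment. In bulk RNA, fewer cells of a type and less RNA per cell cannot be told apart.

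Chrnb1 (ENSMUSG00000041189, chromosome 11, 69784036 to 69795943, minus strand), the beta subunit, had 10613, 12120 and 10447 normalized counts in WT and 10992 and 13414 in Elmo2EID/EID. One Elmo2EID/EID sample was the highest of the 5 and the other lay among the WT samples. Its log2 fold change was 0.14 with a 95% interval of -0.12 to 0.39 (adjusted p = 0.612). Chrnd (ENSMUSG00000026251, chromosome 1, 87190607 to 87200070, plus strand), the delta subunit, was the steadiest of the 10, with 24441, 24911 and 25137 normalized counts in WT and 24442 and 24483 in Elmo2EID/EID. Its highest sample was 1.03 times its lowest. The log2 fold change of Chrnd was -0.02 with a 95% interval of -0.16 to 0.12 (adjusted p = 0.903), which is a fold between 0.894 and 1.09.

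Chrng (ENSMUSG00000026253, chromosome 1, 87204657 to 87212694, plus strand), the fetal gamma subunit, begins 4586 bases beyond the end of Chrnd on the same strand. It had 27678, 32437 and 31204 normalized counts in WT and 28285 and 29114 in Elmo2EID/EID. The Elmo2EID/EID samples fell between the lowest and the middle WT sample. The log2 fold change of Chrng was -0.08 with a 95% interval of -0.28 to 0.12 (adjusted p = 0.719). Chrne (ENSMUSG00000014609, chromosome 11, 70614883 to 70619216, minus strand), the adult epsilon subunit, had 453.3, 630.4 and 821.7 normalized counts in WT and 754.8 and 537.9 in Elmo2EID/EID. It varied most of the 10, its highest sample being 1.81 times its lowest, and that spread lay within WT. Its log2 fold change of 0.05 carried a 95% interval of -0.57 to 0.66 (adjusted p = 0.955), so a fold between 0.676 and 1.58 was compatible with these samples.

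The fetal subunit exceeded the adult one in every sample. Per kilobase of exon, Chrng was 24.8, 20.9 and 15.4 times Chrne in WT replicates 1 to 3 and 15.2 and 22.0 times Chrne in Elmo2EID/EID replicates 1 and 2. The genotypes overlapped in this ratio. Chrng made up 93.8% to 96.1% of the sum of the 2 genes. The mean log2 ratio was 4.32 ± 0.35 in WT (SD, n = 3) and 4.19 ± 0.38 in Elmo2EID/EID (SD, n = 2), a difference of -0.13 (two-sided exact permutation test of the genotype labels, p = 0.7, where 10 arrangements allow no p below 0.1). The difference turned positive without WT replicate 1 (0.03) and without Elmo2EID/EID replicate 1 (0.14). With coding length in place of exon length the ratio was 35.7 to 58.1, and with the longest coding transcript it was 21.8 to 35.5, with the same difference between genotypes since length cancels.

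**Figure D2:**
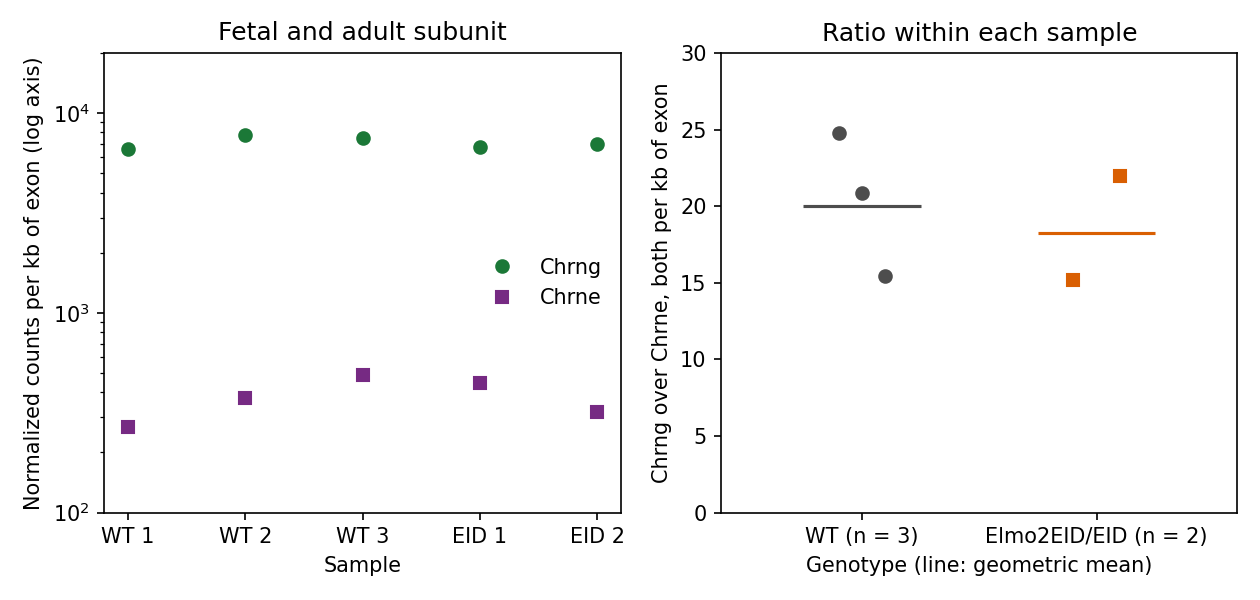
Left, normalized counts per kilobase of exon (log axis) of Chrng (circles) and Chrne (squares) in each sample. Right, the ratio of Chrng to Chrne within each sample by genotype, with a line at the geometric mean: the 3 WT values span 15.4 to 24.8 and the 2 Elmo2EID/EID values, 15.2 and 22.0, overlap them.

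Musk (ENSMUSG00000057280, chromosome 4, 58285960 to 58374303, plus strand), the kinase that starts receptor clustering, had 9667, 10442 and 14500.4 normalized counts in WT and 11442 and 10342 in Elmo2EID/EID. The sample of WT replicate 3 stood above the other 4 samples, which lay close together. The log2 fold change of Musk was -0.06 with a 95% interval of -0.46 to 0.34 (adjusted p = 0.902). Lrp4 (ENSMUSG00000027253, chromosome 2, 91457511 to 91513779, plus strand), the agrin receptor, had 5778, 5869.8 and 5565 normalized counts in WT and 5589 and 6315 in Elmo2EID/EID. The Elmo2EID/EID samples lay on both sides of the WT median. Its log2 fold change was 0.05 with a 95% interval of -0.12 to 0.22 (adjusted p = 0.805).

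Dok7 (ENSMUSG00000044716, chromosome 5, 35056766 to 35087839, plus strand), the MuSK adaptor, had 4483, 4532 and 5236 normalized counts in WT and 5074 and 5328 in Elmo2EID/EID. One Elmo2EID/EID sample was the highest of the 5 and the other was below WT replicate 3. The log2 fold change of Dok7 was 0.13 with a 95% interval of -0.07 to 0.33 (adjusted p = 0.520). Rapsn (ENSMUSG00000002104, chromosome 2, 91035620 to 91045729, plus strand), the receptor scaffold, had 2828, 2802 and 2358 normalized counts in WT and 2702 and 2849.9 in Elmo2EID/EID. The lowest sample was WT replicate 3 and the other 4 differed little. Its log2 fold change was 0.06 with a 95% interval of -0.16 to 0.29 (adjusted p = 0.811).

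Agrn (ENSMUSG00000041936, chromosome 4, 156165290 to 156197488, minus strand), which encodes the ligand of the pathway, was the gene with the largest difference of the 10. It had 1346, 1352 and 1683 normalized counts in WT and 1984 and 1947 in Elmo2EID/EID. Both Elmo2EID/EID samples were above every WT sample, as held for no other member. The ratio of means was 1.35 and the log2 fold change 0.44, with a standard error of 0.11 and a 95% interval of 0.17 to 0.70 that was not adjusted for the number of genes. The unadjusted p was 0.00590 and the adjusted p 0.115 by limma, so Agrn did not pass the threshold of 0.05 over all genes. On reads recovered from the table, the adjusted p was 0.120 by edgeR's quasi-likelihood test and 0.0228 by the DESeq2 Wald test, which called it higher. Over all alternatives the adjusted p of Agrn ranged from 0.0228 to 0.462, and without WT replicate 3, the highest WT sample, it was 0.0261 by limma. Muscle makes agrin without the short exons that give the neuronal form its clustering activity, and counts per gene do not separate these forms.

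Other cell types also make agrin, and the levels of their markers are given beside it. Before culture, myoblasts had been selected with a satellite cell isolation kit and anti-INTEGRIN-7 beads, a step meant to remove other cells. The 12 endothelial markers summed to 986.9, 242.3 and 1038 normalized counts in WT and to 2657 and 3993 in Elmo2EID/EID. Of the 12, 11 had a log2 fold change above 0, the median was 2.38, and 9 had an unadjusted p under 0.05 (against 15.2% of all genes). The genotypes did not overlap in 12 of 12 (against 32.6%). At an adjusted p of 0.05 limma called 0 (against 2.23% of all genes), edgeR 1 (against 2.25%) and DESeq2 5 (against 5.91%, in either direction), and the defining genes Pecam1 and Cdh5 were above 0 in every sample. The 8 Schwann cell markers summed to 347.2, 236.7 and 835.3 in WT and to 980.2 and 658.9 in Elmo2EID/EID, with 8 of 8 above 0 in log2 fold change, a median of 1.31, 2 at an unadjusted p under 0.05, 2 without overlap and 0 calls by limma, edgeR or DESeq2, and Sox10 and the most abundant gene Ngfr were above 0 in every sample. The 9 fibro-adipogenic markers, of which 7 were tested, summed to 27899, 12207 and 15827 in WT and to 13641 and 19357 in Elmo2EID/EID, led per length by the collagen gene Col1a1, with 6 of the 7 above 0 in log2 fold change, a median of 0.33, 3 at an unadjusted p under 0.05, 3 without overlap and 0 calls by limma. DESeq2 called 1 of them, Col3a1, which was lower in Elmo2EID/EID (-0.90 by limma). The part of these cells in the Agrn values was not tested.

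**Figure D3:**
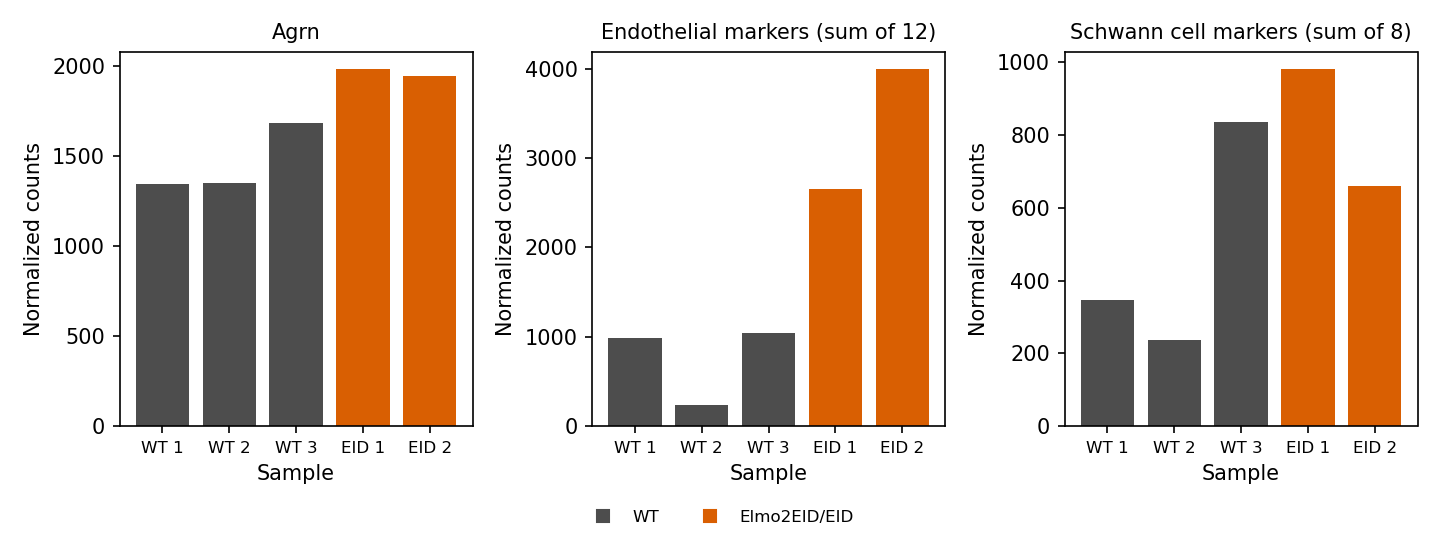
Normalized counts in each sample of Agrn, of the 12 endothelial markers summed and of the 8 Schwann cell markers summed, with WT bars in grey and Elmo2EID/EID bars in orange. Agrn is at 1346, 1352 and 1683 in WT and at 1984 and 1947 in Elmo2EID/EID, and the endothelial sums are also highest in the Elmo2EID/EID samples, at 2657 and 3993.

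Across the 10 members, limma called 0 at an adjusted p of 0.05, against 404 of 18156 genes, which is 2.23%. At an unadjusted p under 0.05 the count was 1 of 10, Agrn, against 15.2% of all genes. EdgeR called 0 of 10 against 2.25% of all genes. DESeq2 called 1 of 10, again Agrn, against 5.91% of the 16396 genes to which it gave an adjusted p, in either direction. It called 2.52% of those genes higher, the direction of Agrn. The genotypes did not overlap in 1 of 10 members, against 32.6% of all genes tested. The median log2 fold change was 0.05 in the members and 0.01 over all genes, and 6 of the 10 were above 0. Without regard to sign the members had a median of 0.06, while the 10794 protein-coding genes that averaged 100 or more normalized counts had 0.10. The other 9 members lay between -0.08 and 0.14, with adjusted p from 0.520 to 0.955. Differences up to the ends of each interval were not resolved, and the intervals were narrowest for Chrnd and widest for Chrne.

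**Figure D4:**
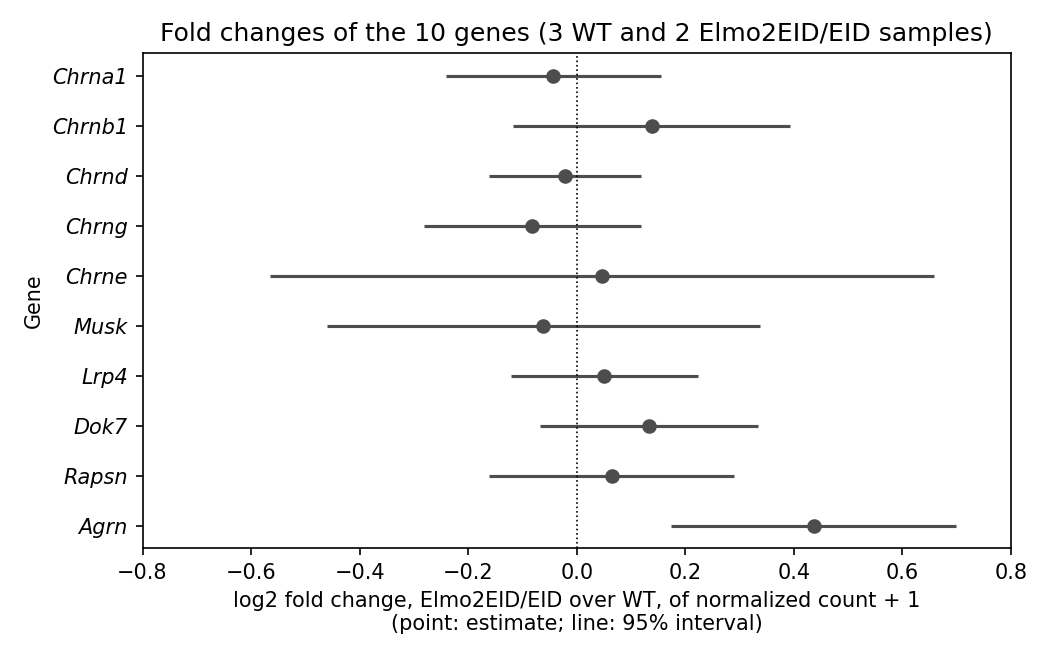
Log2 fold change of Elmo2EID/EID over WT (points) with its 95% interval (lines) for each of the 10 genes, from limma with 3 WT and 2 Elmo2EID/EID samples. The line of Agrn, 0.17 to 0.70, is the only one that does not cross 0, and that of Chrne is the widest, -0.57 to 0.66.

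The further genes of the synapse were counted in lists. Of 24 tested partners of MuSK signalling, led per length by the GTPase Cdc42, 1 was called by limma (against 2.23% of all genes). It was Pak1, a kinase downstream of RAC and CDC42, with 3152, 3392 and 3142 normalized counts in WT and 2400.4 and 2189 in Elmo2EID/EID (log2 fold change -0.49, adjusted p = 0.0249). DESeq2 also called the kinase Src as lower and the adaptor Sorbs2 as higher. By limma their log2 fold changes were -0.32 and 0.52, with adjusted p of 0.106 and 0.0785. The median log2 fold change of this list was 0.02. Of the 16 regulators of synaptic genes, 14 were tested and 0 were called. Myog, the myogenic factor that leads this list per length, had a log2 fold change of 0.10 (adjusted p = 0.583). Gabpa, which encodes an N-box binding factor, had 0.13 (adjusted p = 0.420), and Erbb4, a neuregulin receptor, was below the minimum.

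All 21 genes of the postsynaptic scaffold and synaptic matrix were tested and limma called 0. Its leading gene per length, Nes, which encodes the filament protein nestin, had a log2 fold change of -0.20 (adjusted p = 0.553). DESeq2 called Lama4, a laminin chain, with 66.3, 29.2 and 131.8 normalized counts in WT against 239.7 and 235.8 in Elmo2EID/EID. It also called Tnc, the matrix protein tenascin C, with 12055, 12566 and 6568 in WT against 4848 and 3753 in Elmo2EID/EID. Both had separate groups, and their adjusted p by limma was 0.172 and 0.0883. The endothelial sums were also lowest in WT replicate 2 (242.3) and highest in Elmo2EID/EID (2657 and 3993). The part of these cells in the Lama4 values was not tested. Of the 5 glycosylation enzymes whose loss causes congenital myasthenia, led by Gfpt1, 0 were called and the median log2 fold change was 0.08. Of 12 genes listed as regulated by denervation or activity (Chrng is also expressed in denervated muscle), 0 were called and the median was 0.02. The most abundant of them, the embryonic myosin Myh3, had a log2 fold change of -0.22 (adjusted p = 0.622).

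The muscle subunits were nearly alone among nicotinic receptor genes. Of the other 11 subunits, 2 reached the minimum for testing, and 2, Chrna3 and Chrna6, were at 0 in all 5 samples. Chrnb2, a neuronal beta subunit, was the most abundant with 59.4 to 77.1 normalized counts, and neither it nor Chrna7 was called (adjusted p = 0.709 and 0.665). Among chaperones and Ly6 proteins, small proteins some of which bind nicotinic receptors, 6 of 12 were tested. Limma called 2 of these, against 2.23% of all genes. The called genes, Lynx1 (74747852 to 74753046) and Psca (74714839 to 74717069), lie close together on chromosome 15, so they may not be independent results. Lynx1, a membrane-anchored modulator of neuronal nicotinic receptors, had 1805, 2365 and 2203 normalized counts in WT and 212.0 and 178.4 in Elmo2EID/EID, or -3.43 ± 0.14 (standard error) as a log2 fold change, with an adjusted p of 1.5e-04 by limma. Psca, another Ly6 protein, had 0, 2.24 and 1.24 in WT, which is at or under 3 reads, and 82.3 and 81.6 in Elmo2EID/EID (adjusted p = 0.00666 by limma). Both genes were also called by edgeR and DESeq2. Over all these lists together, 84 of 101 genes were tested, and limma called 3 (3.57%, against 2.23% of all genes), edgeR 3 (3.57%, against 2.25%) and DESeq2 7 (8.33%, against 5.91%). Each of these counts includes the neighbours Lynx1 and Psca.

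**Figure D5:**
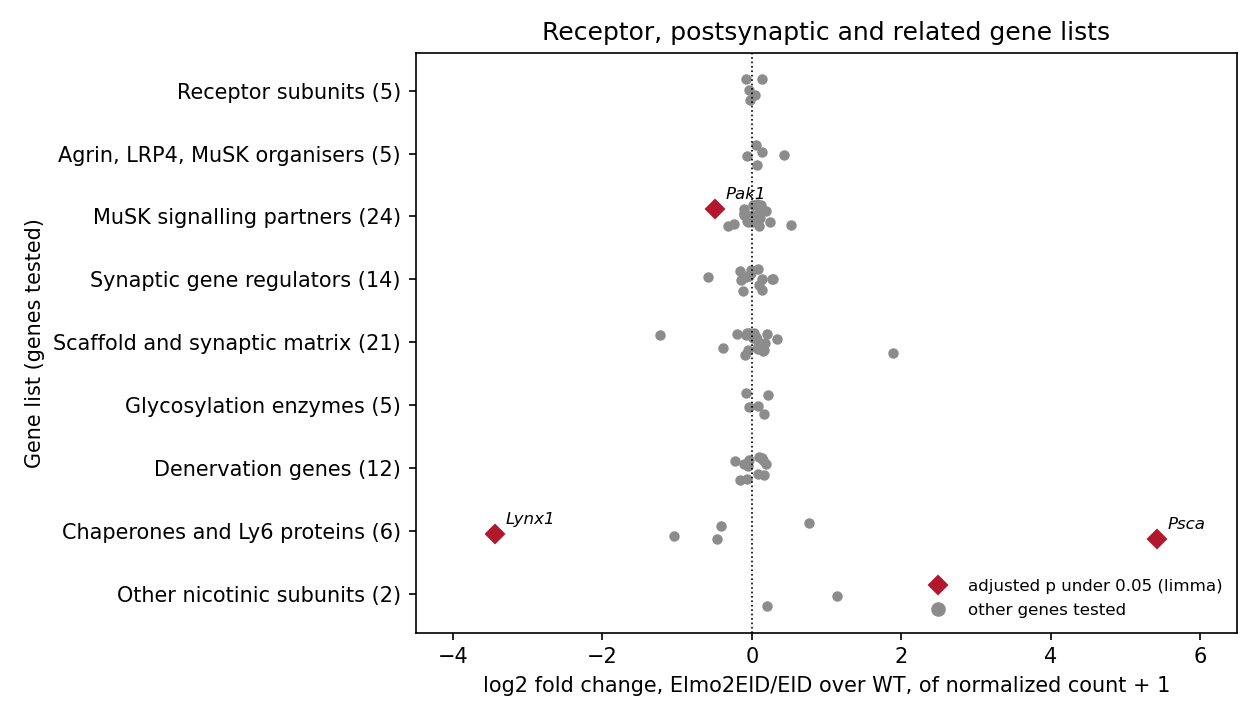
Log2 fold change of Elmo2EID/EID over WT of each gene tested in the receptor, postsynaptic and related lists, with genes at an adjusted p under 0.05 as red diamonds and the other genes as grey circles, spread vertically only for legibility. The receptor subunits lie between -0.08 and 0.14 and the organisers between -0.06 and 0.44, while the diamonds are Pak1 at -0.49, Lynx1 at -3.43 and Psca at 5.42, a place that depends on the added 1 because its WT samples are at or under 3 reads.

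A pattern among samples was seen only after the values were known. Chrne and Musk each had their highest pair of values in WT replicate 3 and Elmo2EID/EID replicate 1. So did Ache, the acetylcholinesterase of the synaptic cleft, with 3264, 2858 and 5961 normalized counts in WT against 5349.9 and 2500.3 in Elmo2EID/EID, and Colq, which anchors it, with 960.4, 1081 and 1387 in WT against 1321 and 1013 in Elmo2EID/EID. In each of these 4 genes the genotypes overlapped and the spread within a genotype exceeded the difference between the genotypes. The same pair of samples was highest in 2 of the 10 members and in 13 of the 84 tested genes of the further lists (15.5%). It was highest in 13.1% of all genes tested and in 17.1% of those with a mean of 100 or more normalized counts. Among the 2052 genes with that mean whose highest sample was at least 1.5 times the lowest, the share was 7.80%. Chrne, Musk and Ache also vary that much, but they were named because they show the pattern. The members and the lists were not counted under that filter, so the 7.80% is not a like comparison for them.

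The members were spread over chromosomes 1, 2, 4, 5 and 11. Beside Chrnd and Chrng, the pair Rapsn and Lrp4 lies 411781 bases apart on chromosome 2, and Chrnb1 and Chrne lie 818939 bases apart on chromosome 11. Of 196 tested genes that start within 500 kb of a member, limma called 1 (0.510%, against 2.23% of all genes). It was Gm12579, a processed pseudogene near Musk (chromosome 4, 58611058 to 58611840), at 0 in the WT samples and with 8.05 and 8.96 normalized counts in Elmo2EID/EID (adjusted p = 0.0373 by limma). EdgeR did not call it (adjusted p = 0.0744), and DESeq2 gave it no adjusted p. Around Agrn, 34 neighbours were tested, and limma and DESeq2 called 0. DESeq2 called 4 of the 196, Kctd11 near Chrnb1, Cxcl16 near Chrne, Svep1 near Musk and Mdk near Lrp4, and edgeR called 2, Cxcl16 and Svep1.

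Overlap with other genes was limited. Of the 10, 8 shared no 50-base run of their exons with another annotated gene, and Chrna1 shared 131 of its 4337 runs, or 3.02%, with other genes but 0 with another member. Lrp4 shared 2 runs. The opposite-strand genes 4930544D05Rik, within Chrne, and Gm13778, over the end of Rapsn, reached at most 1.24 and 17.0 normalized counts. Counting was done by strand, so these were counted apart from the members.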

How the data were processed

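RNA of primary myoblasts differentiated for 72 h was sequenced as stranded poly-A libraries, 3 from WT and 2 from Elmo2EID/EID mice. STAR 2.5.1b mapped the reads to GRCm38 and featureCounts 1.4.6 assigned uniquely mapped reads to genes by strand. The signal deposited by the authors is each gene's read count after division by a sample's size factor from DESeq2 (1.34.0 in the submitters' processing notes). Division by the smallest positive value of a sample gave whole reads for 100.0% of positive values (within 0.01).

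Symbols came from GENCODE release M21 and matched 54165 of 54232 identifiers. The main test was limma 3.58.1 (lmFit, eBayes with trend, two-sided) on log2(normalized count + 1) of 18156 genes (those reaching 5 normalized counts in any sample), adjusted by Benjamini-Hochberg with a threshold of 0.05. EdgeR 4.0.16 and DESeq2 1.42.0 (R 4.3.3) were run on the recovered reads. Chi-square per degree of freedom between replicates was 26.6 to 37.8, above sampling noise. Levels were compared per kilobase of exon, and ratios with exact permutation tests. Named genes were the members, Elmo2, called genes of the lists or within 500 kb, the most abundant gene of each list, and a few others chosen after their values were seen (Src, Sorbs2, Gabpa, Erbb4, Lama4, Tnc, Chrna3, Chrna6, Chrna7, Chat, Slc18a3, Snap25, Pecam1, Sox10, Ache, Colq, Kctd11, Cxcl16, Svep1, Mdk, Stmn2, Flt1, Col3a1, Slc5a7, Isl1, Vcam1). The members and lists were chosen with earlier results of these data known. The scripts were tested on simulated data. Alternatives were other pseudocounts, filters, scalings and lengths, a replicate block and leaving out each sample.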

Additional observations from a re-analysis of the deposited data

How the results depend on the processing

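Over 150 recomputed fold changes of the 10 genes, 139 kept their direction and their side of the threshold, 2 passed it only under the alternative (both Agrn, with DESeq2 and without WT replicate 3) and 9 changed sign, with 0 of the 9 past the threshold. The members called rose from 0 to 1 with DESeq2, and from 0 to 0 or 1 with a sample left out. With the replicate number as a block, the log2 fold change was 0.11 for Musk and -0.021 for Rapsn. WT replicate 3 has no partner in Elmo2EID/EID, so the block's fold changes equal those without WT replicate 3. The 150 fold changes therefore hold these values under both settings. With the block, 224 genes were called over the transcriptome, Agrn had an adjusted p of 0.0691 by limma, and no call of a member changed. No label says whether a shared replicate number marks a shared animal, litter or day. The difference of replicates 1 and 2 correlated at -0.27 between the genotypes over 12298 genes. Genes are not independent replicates and each genotype gives a single such difference, so this value cannot decide whether the samples were paired. With a sample left out, log2 fold changes were -0.0056 to 0.28 for Chrnb1, -0.20 to 0.29 for Chrne, -0.18 to 0.11 for Musk, -0.038 to 0.14 for Lrp4, -0.021 to 0.11 for Rapsn and 0.38 to 0.54 for Agrn. The genotype difference of the Chrng to Chrne log2 ratio was then -0.39 to 0.14, and -0.32 with the block. The mean ratio of Chrng to Chrne was 46.1 with coding length and 28.1 with the longest coding transcript, and that of Chrng to Chrnd 1.21 and 1.27, lengths chosen for Chrnd, and for the subunit shares, after the data were seen. All genes called were 404, against 155 without a filter, 969 with DESeq2, 144 without the trend, and 34 (without Elmo2EID/EID replicate 2) to 335 (without WT replicate 3) with a sample left out. Without WT replicates 1 and 2 in turn the counts were 134 and 203, and without Elmo2EID/EID replicate 1 it was 94. The single sample left in Elmo2EID/EID is then assumed to vary like WT. DESeq2 called 1 organiser, 3 MuSK partners, 2 scaffold and matrix genes, 1 neuronal marker (Stmn2, also called by edgeR), 5 endothelial, 1 fibro-adipogenic and 2 satellite cell genes, and edgeR called 1 endothelial gene, Flt1. Near the members, edgeR called 2 genes and DESeq2 4, tests chosen there after the data were seen. The causes were not tested. The lowest value of a member in any sample was 453.3 normalized counts, against 2.65 to 3.73 for 3 reads.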
